A study of Mus musculus with 16 samples.

Results

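E2f1, E2f2, E2f3, E2f4, E2f7, E2f8, Rb1 and Rbl1, which encode 6 E2F transcription factors and 2 pocket proteins of the retinoblastoma family, were followed in natural killer (NK) cells. They are the rows of the deposited count table whose gene symbol is one of these 8 names, 8 of 49671 genes. E2F factors bind the promoters of genes needed for DNA replication and cell division. In resting cells the pocket proteins hold E2F factors in a repressed state, and phosphorylation by cyclin-dependent kinases releases them when a cell enters the cycle. E2f7 and E2f8 are atypical members that bind DNA without a DP partner or a pocket protein, repress, and are themselves switched on late in G1 by the activating E2F factors.

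NK cells, sorted as live CD45+ CD3- NKp46+ DX5+ cells, were taken from axillary lymph nodes that drain the tumour (LN) or from the lungs of mice of the genotype Cdh1F/F;Trp53F/F;Foxp3GFP-DTR on an FVB/N background. Every mouse, controls included, carried this genotype and an orthotopically transplanted KEP mammary tumour of 100 mm2. In Foxp3GFP-DTR mice the cells that express Foxp3, mainly regulatory T cells, carry the receptor for diphtheria toxin (DT), and the question was how DT changes NK cells at each site. The treated mice received 25 ug of DT and the controls received PBS, both at T=0 and T=7, with no unit given for T. The labels give no age and name no Cre for these mice. Each site was sampled with PBS and with DT, 4 libraries each, made by Smart-seq2, which amplifies full-length cDNA, from small numbers of sorted cells. The p-values take each library as one animal, and whether an LN and a lung library with one replicate number came from one mouse is not stated in the labels.

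The 16 libraries held 3929560 to 10744934 counts. Levels are given in CPM, the counts of a gene relative to the TMM-scaled size of its library, and a gene was called when edgeR's quasi-likelihood test gave a Benjamini-Hochberg adjusted p under 0.05 over the 13940 genes tested. All 8 NK marker genes examined (among them Ncr1, Klrb1c and Eomes) were detected in every group, at summed group means of 13466 to 18036 CPM. The list includes Ptprc, the CD45 gene, at group means of 3938 to 6141 CPM. In lung Ptprc averaged 4593 CPM with PBS and 5743 CPM with DT, and Klrk1 1561 and 1654 CPM. The other genes of the list were lower with DT in lung. Ncr1 averaged 4656 and 3289 CPM, Prf1 2914 and 1664 CPM, Klrb1c 951 and 446 CPM, and Tbx21 820 and 430 CPM. Eomes averaged 199 and 135 CPM, and Itga2 113 and 106 CPM. No library had more than 9 counts of Foxp3. Markers of other cells were also present. With PBS and DT, the group means of the neutrophil list were 2.47 and 2.09 CPM for LN and 49.0 and 109 CPM for lung. Those of the epithelial list were 38.5 and 3.45 CPM and 7.24 and 12.8 CPM, with LN PBS libraries from 0 to 149 CPM. Those of the regulatory T cell list were 49.0 and 102 CPM and 24.4 and 19.9 CPM. In LN this list consisted mainly of Ikzf2 (40.9 and 64.3 CPM) and Il2ra (7.84 and 37.1 CPM), with Foxp3 at 0.265 and 0.877 CPM. In addition, 5 plasma cell genes summed to 212 to 867 CPM in LN DT against 2.42 to 11.2 CPM in LN PBS. The first DT libraries of LN and lung stood apart, with 18216 and 17164 CPM of the nuclear RNA Malat1 against at most 8511 CPM elsewhere. In such bulk samples, fewer cells of a type that express a gene and less of its RNA per cell cannot be told apart.

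The start regions of E2f7 and E2f8 are printed because E2f7 was the one of the 8 genes called and E2f8 is its closest relative. Both are RefSeq windows on GRCm38.p6 from 250 bases before to 50 bases after the annotated start. E2f7 lies on the plus strand at chr10:110745439-110787384 (ENSMUSG00000020185, protein coding), and its window is chr10:110745189-110745488. E2f8 lies on the minus strand at chr7:48866429-48881596, and its window is chr7:48881547-48881846. Capitals mark a match to the E2F motif in E2f7 and to the cell cycle element named CHR in E2f8.
E2f7: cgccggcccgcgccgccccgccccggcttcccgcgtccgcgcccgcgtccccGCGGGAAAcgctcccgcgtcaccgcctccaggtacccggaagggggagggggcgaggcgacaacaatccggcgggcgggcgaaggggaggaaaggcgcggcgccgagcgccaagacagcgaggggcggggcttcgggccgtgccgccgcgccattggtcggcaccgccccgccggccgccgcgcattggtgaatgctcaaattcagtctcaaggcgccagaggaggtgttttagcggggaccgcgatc
E2f8: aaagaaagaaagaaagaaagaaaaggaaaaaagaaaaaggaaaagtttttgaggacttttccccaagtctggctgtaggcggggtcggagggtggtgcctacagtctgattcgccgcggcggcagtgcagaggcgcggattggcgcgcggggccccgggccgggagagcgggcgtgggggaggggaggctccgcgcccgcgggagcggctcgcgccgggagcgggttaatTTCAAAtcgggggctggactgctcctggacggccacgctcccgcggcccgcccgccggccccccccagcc
The E2F motif was searched on both strands as the letters TTTCCCGC, TTTCGCGC, TTTGCCGC and TTTGGCGC, and CHR as TTTGAA. No E2F match overlaps a CHR match in these windows. The E2f7 match, GCGGGAAA, reads TTTCCCGC on the other strand and begins 198 bases before the start. The E2f8 match, TTCAAA, begins 20 bases before the start, and these E2F letters are not in the E2f8 window.

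Windows were found for 6 of the 8 genes, 8 windows in all, because E2f2 and E2f3 have 2 each. An E2F match stood in 4 of the 8 windows, and 2.26% of all 32851 windows of this length hold one. A CHR match stood in 3 of the 8 windows, against 17.9% of all windows. The 3 further E2F matches are shown with the bases around them to let their distance from the start be compared, with the match in capitals, at chr4:136172298-136172323 (plus strand), chr13:29986052-29986089 (minus strand) and chr2:157204530-157204567 (minus strand).
E2f2: tttggcggcatatagTTTGGCGCtaa
E2f3: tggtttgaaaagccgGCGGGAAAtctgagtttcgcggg
Rbl1: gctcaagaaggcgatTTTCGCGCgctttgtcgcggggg
The E2f2 match begins 39 bases after the start, the E2f3 match 11 bases before it and the Rbl1 match 18 bases before it. The second E2f3 window also holds CHR, in the lower-case letters 23 bases before the start. The window of E2f1, chr2:154569377-154569676 on the minus strand, holds neither motif. It lies inside the gene as placed in the count table, chr2:154559407-154569892. The region before that start was therefore not searched. A match of letters is a description and does not show that a factor binds there.

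Per length, E2f4 was the most abundant of the 8 transcripts in every group and E2f7 or E2f8 the least. In LN PBS the group means, in CPM per kilobase of exon (RPKM), ran from E2f4 at 17.6 through Rbl1 at 5.31, E2f2 at 4.07, Rb1 at 0.932, E2f1 at 0.854, E2f3 at 0.539 and E2f8 at 0.187 to E2f7 at 0.0102. Only the steps from E2f4 to Rbl1 and from E2f2 to Rb1 separated neighbours whose library ranges did not overlap in that group. In lung DT the order began with E2f4 at 14.2 RPKM, Rbl1 at 7.23 and E2f2 at 6.98, and ended with E2f7 at 1.02 and E2f8 at 0.635, and every pair of neighbours overlapped. In LN DT the mean of E2f7 was 0.671 RPKM, below E2f8 at 0.795, and only the step from E2f4 to Rbl1 was free of overlap. In lung PBS E2f7 was also the lowest, at 0.366 RPKM, and the steps from E2f4 to Rbl1, E2f2 to Rb1 and E2f3 to E2f8 were free of overlap.

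E2f7 was at or near 0 in NK cells of the control lymph node and present in every library of the other groups. Its counts in LN PBS were 0, 2, 1 and 0, which is 0, 0.242, 0.124 and 0 CPM for replicates 1 to 4. In LN DT the counts were 11, 71, 80 and 30, which is 1.88, 9.38, 9.63 and 3.30 CPM. All 4 DT libraries were above all 4 PBS libraries, and replicates 2 and 3 were the highest. E2f7 rose with DT in LN by a fitted log2 fold change of 5.86 ± 1.01 (SE, n = 4 and 4; edgeR adjusted p = 0.027). Because LN PBS held 3 counts in all, the fitted size depends on the prior count, and the depth-scaled ratio of the summed counts was 72.0 with a 95% exact interval of 24.3 to 352 that covers counting error only.

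E2f7 was the only one of the 8 genes called by edgeR in LN, where 0.0646% of all tested genes were called. Limma-voom called 4 of the 8, and over all 13940 genes it called 2084 higher and 1652 lower. Leaving out LN PBS replicate 1, 3 or 4 gave adjusted p values of 0.145, 0.16 and 0.168, and leaving out LN DT replicate 2 or 3 gave 0.102 and 0.103. Without lung PBS replicate 1, 2 or 3, which enter through the shared estimate of spread, the values were 0.0561, 0.0504 and 0.0562. With the replicate number as a block the adjusted p was 0.0641. Over the 26 alternatives that kept the gene the fitted log2 fold change stayed between 5.27 and 6.79, and the adjusted p lay between 3.88e-06 and 0.205, under 0.05 in 16. E2f7 shares 86 exon bases with 1700020G17Rik on the other strand, which had 0 counts in all groups.

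In the lung E2f7 was already present without DT. Lung PBS had 2.68, 2.50, 2.54 and 5.46 CPM, and lung DT had 6.03, 7.01, 6.51 and 17.2 CPM. The groups did not overlap, but the lowest DT library was close to the highest PBS library, and replicate 4 was the highest in each group. The log2 fold change was 1.47 ± 0.78 (edgeR adjusted p = 0.393) and missed the threshold. Without lung DT replicate 4 it was 0.92.

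Lung and LN differed in E2f7 without toxin. Lung PBS exceeded LN PBS by a log2 fold change of 4.99 ± 0.98 (edgeR adjusted p = 0.00669), with all 4 lung libraries above all 4 LN libraries and a depth-scaled ratio of summed counts of 38.9 (95% exact interval 12.9 to 192). It was the one gene of the 8 called here, against 3.61% of all tested genes, and it was called under each of the 25 alternatives that kept the gene, with adjusted p values of 3.11e-05 to 0.0324. Other cells' genes also differed between these groups. Macrophage markers summed to 52.3 to 420 CPM in lung PBS against 8.85 to 40.6 CPM in LN PBS, and T cell markers to 28.6 to 68.0 CPM against 326 to 409 CPM. The T cell genes did not move alike. Most of the LN PBS sum came from Cd3g (mean 210 CPM, and 26.1 CPM in lung PBS) and Cd3d (126 and 12.3 CPM). Cd3e (18.9 and 1.24 CPM) and Cd5 (5.34 and 2.74 CPM) were also lower in lung. Cd4 (3.59 and 4.38 CPM) and Cd8a (0.620 and 1.66 CPM) were higher in lung. The part of these markers in the E2f7 values was not tested.

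Averaged over LN and lung, DT raised E2f7 by 3.66 ± 0.63 on the log2 scale (edgeR adjusted p = 0.00862). This is the mean of 5.86 in LN and 1.47 in lung, and the lung change alone was not called. The average takes LN and lung libraries as independent, and its SE would be too small where same-numbered libraries vary together. Their deviations from group means correlated at 0.184 to 0.412 between LN DT and lung DT, and at -0.0303 to 0.191 between LN PBS and lung PBS. With the replicate number as a block the averaged edgeR adjusted p of E2f7 was 0.0162. This block also joins PBS and DT libraries of one number, which came from different mice. It therefore does not correct the SE for an LN and a lung library of one mouse. E2f7 was again the only one of the 8 genes called by edgeR, while 3.9% of all tested genes were called. DESeq2 and limma-voom each called 3 of the 8, with many more genes called over the whole table. DESeq2 called 1186 higher and 565 lower of 26329 genes, and limma-voom 1957 and 1824 of 13940. The difference between the responses, lung minus LN, was -4.39 ± 1.21 for E2f7, with an unadjusted p of 0.00196 and an edgeR adjusted p of 0.785. The sizes of this difference and of the average both depend on the 3 counts of E2f7 in LN PBS. None of the 8 genes was called for that difference by edgeR, DESeq2 or limma-voom, and edgeR called 0.00717% of all genes. With an unadjusted p under 0.05 it was the only gene of the 8, against 4.2% of all genes.

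Plasma cell and dendritic cell markers and the mitochondrial share were also higher in LN DT libraries. In replicates 1 to 4 the plasma cell list summed to 389, 681, 867 and 212 CPM and the dendritic cell list to 30.8, 125, 253 and 26.3 CPM. The dendritic cell sums of replicates 1 and 4 lay within the LN PBS range of 13.4 to 36.3 CPM, and E2f7 in those libraries was 1.88 and 3.30 CPM. Replicates 2 and 3, with the higher dendritic cell sums, had the higher E2f7 levels, 9.38 and 9.63 CPM. The part of the dendritic cell markers in these values was not tested. All 5 plasma cell genes had counts in LN DT, but they did not move alike. Most of the LN DT sum came from Ighg1 (mean 0.714 CPM with PBS and 301 with DT) and Jchain (0.0613 and 201 CPM). Mzb1 averaged 4.91 and 34.3 CPM, Tnfrsf17 0 and 0.219 CPM, and Sdc1 was lower with DT, at 0.744 and 0.449 CPM. The plasma cell sums of all 4 LN DT libraries exceeded those of LN PBS, and their part in the E2f7 result was not tested.
The share of counts from mitochondrial genes was 4.93%, 4.18%, 4.01% and 1.24% in LN DT against 1.05% to 1.68% in LN PBS. Replicate 4 of LN DT lay within the PBS range. With that share as a covariate the E2f7 call in LN ended, at a log2 fold change of 5.27 and an adjusted p of 0.205. The averaged call ended too, at 3.11 and 0.563, which is the highest of that result's range of 1.81e-07 to 0.563. With this covariate edgeR called 0 genes higher and 0 lower of all 13940 tested in LN, and likewise in the average. All edgeR calls of these comparisons thus ended with a covariate that was itself higher in most LN DT libraries. For E2f7, DT and the mitochondrial share cannot be fully told apart here.

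**Figure D1:**
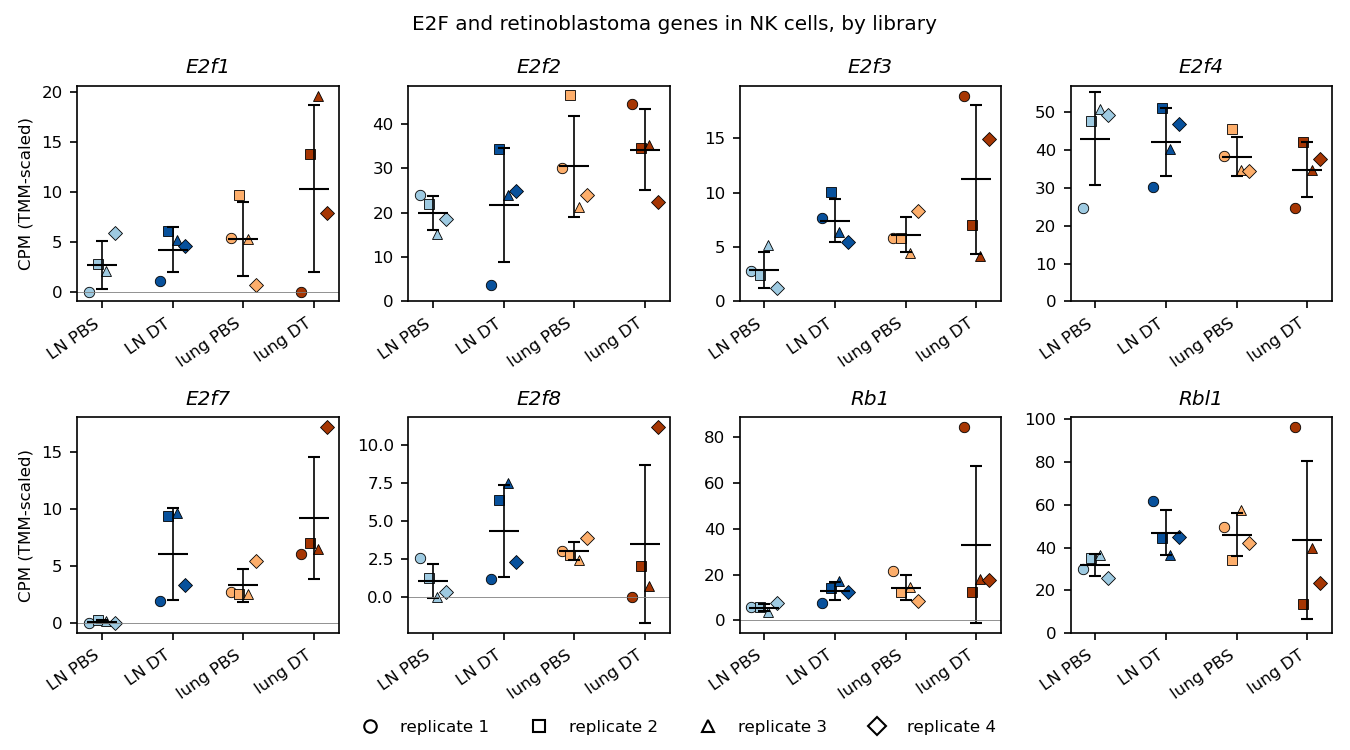
Level of each of the 8 genes in CPM (y axis, TMM-scaled, linear) in every library of the 4 groups, with symbols for replicates, a bar for the mean and whiskers for 1 SD. The LN PBS libraries of E2f7 lie at 0 to 0.242 CPM, below every other library, and lung DT replicate 1 lies far above the rest for Rb1 at 84.1 CPM.

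E2f8, the other atypical repressor, was low and scattered. LN PBS had 2.52, 1.21, 0 and 0.339 CPM and LN DT 1.20, 6.34, 7.46 and 2.31 CPM. Lung PBS had 2.98, 2.78, 2.42 and 3.85 CPM and lung DT 0, 2.00, 0.692 and 11.1 CPM. The DT and PBS groups overlapped at both sites, and in lung DT replicate 4 alone was above the PBS range. The log2 fold change was 2.07 ± 1.26 in LN (edgeR adjusted p = 0.554) and 0.20 ± 1.21 in lung (0.952), and neither passed. Without lung DT replicate 4 the lung value was -1.78, with an adjusted p of 0.493, in a range of 0.493 to 1 over the alternatives. E2f8 shares 610 exon bases with Gm2788 on the other strand, whose summed counts were 65 (PBS) and 106 (DT) in LN and 9 and 0 in lung. The strand setting of the counting is not given in the sources used here, so reads of the 2 genes cannot be told apart there.

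Across the 16 libraries the log2 CPM of E2f7 and E2f8 correlated at r = 0.52, and their deviations from the group means at 0.61, over libraries that share depth and scaling. In LN DT, replicates 2 and 3 were the highest of both genes, and in lung DT replicate 4 was. In LN PBS, however, replicate 1 had 24 counts of E2f8 and 0 of E2f7.

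The activating factors E2f1, E2f2 and E2f3 were not called by edgeR in any comparison. E2f3 (chr13:29906575-29985668), which drives entry into S phase together with E2f1 and E2f2, came nearest in LN. It had 2.84, 2.42, 5.20 and 1.24 CPM in LN PBS and 7.71, 10.0, 6.38 and 5.50 CPM in LN DT. Every LN DT library was above every LN PBS library, with a log2 fold change of 1.33 ± 0.60 (edgeR adjusted p = 0.397). In lung the groups overlapped, with 5.86, 5.83, 4.47 and 8.32 CPM in PBS and 18.9, 7.01, 4.15 and 14.9 CPM in DT. The lung log2 fold change was 0.88 ± 0.60 (adjusted p = 0.51) and that averaged over the sites 1.11 ± 0.42 (0.13). DESeq2 called E2f3 in the average (adjusted p = 0.028, the lowest of a range up to 1), and limma-voom called it in LN (0.0119, likewise the lowest of a range up to 1).

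E2f1 (chr2:154559407-154569892) was scattered within every group. Its levels were 0, 2.79, 2.11 and 5.88 CPM in LN PBS, and 1.03, 6.07, 5.17 and 4.62 CPM in LN DT. Lung PBS had 5.36, 9.71, 5.32 and 0.621 CPM, and lung DT 0, 13.8, 19.7 and 7.86 CPM. The libraries at 0 were LN PBS replicate 1 and lung DT replicate 1, and the DT and PBS groups overlapped at both sites. The log2 fold change was 0.65 ± 1.20 in LN (edgeR adjusted p = 0.878) and 0.98 ± 1.19 in lung (0.727).
E2f2 (chr4:136172394-136196057) was the most abundant activator per length in all 4 groups. Its means with PBS and DT were 19.9 ± 3.87 and 21.7 ± 12.8 CPM for LN, and 30.4 ± 11.3 and 34.1 ± 9.11 CPM for lung (SD, n = 4 each). LN DT replicate 1 was the lowest library, at 3.77 CPM. The log2 fold changes with DT were 0.13 ± 0.47 in LN (edgeR adjusted p = 0.951) and 0.17 ± 0.47 in lung (0.892), and lung PBS stood 0.61 above LN PBS (0.596).

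E2f4 (chr8:105297663-105305370), which acts mainly as a repressor with pocket proteins in resting cells, differed little between groups. Means with PBS and DT were 43.1 ± 12.4 and 42.1 ± 9.06 CPM for LN, and 38.3 ± 5.15 and 34.9 ± 7.37 CPM for lung (SD, n = 4 each). The lowest libraries were replicate 1 of LN PBS, at 24.6 CPM, and replicate 1 of lung DT, at 24.8 CPM. The log2 fold changes with DT were -0.03 ± 0.29 in LN (edgeR adjusted p = 0.983) and -0.13 ± 0.29 in lung (0.86), and the groups overlapped at both sites. Its SE was the smallest among the 8 genes in both DT comparisons. Across libraries E2f4 correlated with E2f1 at r = 0.67, and at 0.82 after group means were removed, over the same 16 libraries.

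The make-up of the 6 E2f transcripts, as shares of their summed RPKM, differed between groups most in E2f4. Its share was 74.4 ± 7.96% with PBS and 68.4 ± 9.03% with DT for LN, and 61.7 ± 3.93% for lung PBS (SD, n = 4 each). In lung DT it ranged from 43.3% to 55.4%, below the lung PBS range of 56.3% to 65.2%. E2f1, E2f2 and E2f3 together made up 34.5 ± 5.01% in lung PBS and 44.3 ± 8.85% in lung DT, with overlap. E2f7 and E2f8 together made up 1.05 ± 1.31% in LN PBS, from 0.0540% to 2.91%, and 5.35 ± 3.09% in LN DT, from 2.80% to 9.19%. These ranges overlapped slightly, because LN PBS replicate 1 had E2f8. The shares were formed after the levels were known and are given as a description.

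**Figure D2:**
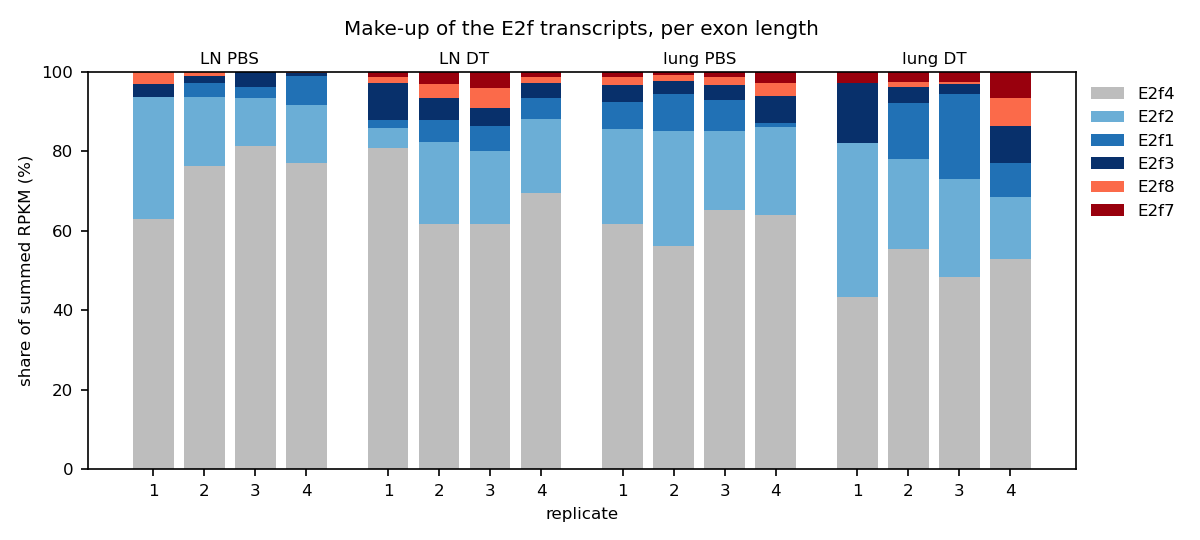
Share of each E2f gene (colours) in the summed RPKM of the 6 E2f genes (y axis, percent), with one bar per library and replicates side by side within the 4 groups. E2f4 fills 43.3% to 55.4% of the lung DT bars and 56.3% to 65.2% of the lung PBS bars, and the dark red of E2f7 is absent or thin in LN PBS.

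Rb1 (chr14:73183673-73325822), the retinoblastoma protein gene, was higher with DT in LN without passing the threshold. LN PBS had 5.78, 5.70, 3.47 and 7.47 CPM and LN DT 7.54, 14.1, 17.3 and 12.4 CPM. The groups did not overlap, although LN DT replicate 1 was barely above the highest PBS library. The log2 fold change was 1.20 ± 0.57 (edgeR adjusted p = 0.423). Lung PBS had 21.3, 12.2, 14.7 and 8.57 CPM, also above every LN PBS library, at 1.34 ± 0.57 (0.227).
Lung DT had 84.1, 12.3, 18.1 and 17.6 CPM, so that replicate 1 stood far above the rest and the other 3 lay inside the lung PBS range. The lung log2 fold change with DT was 1.21 ± 0.56 (adjusted p = 0.329), and without lung DT replicate 1 it was 0.11 (0.914, in a range of 0.172 to 1 over the alternatives). That library also held 186 CPM of Rpph1 against 1.38 to 2.35 CPM in the other lung DT libraries, 1229 CPM of Ifng, T cell markers at 371 CPM against 57.4 to 88.6 CPM, and no E2f1 or E2f8. Their part in the Rb1 value was not tested. Averaged over the sites the Rb1 log2 fold change was 1.20 ± 0.40 (0.0875). Rb1 shares 896 exon bases with genes on the other strand, Lpar6 and Rcbtb2, and the reads of these genes cannot be told apart there if strand was not used. With PBS and DT, Lpar6 averaged 81.9 and 120 CPM in LN and 25.8 and 66.8 CPM in lung, and Rcbtb2 64.3 and 63.2 CPM and 32.1 and 47.4 CPM.

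Rbl1 (chr2:157145893-157204534), which encodes the pocket protein p107 and is itself a known E2F target, had 29.9, 35.1, 36.6 and 25.7 CPM in LN PBS and 61.9, 44.6, 36.6 and 44.9 CPM in LN DT. The lowest DT library and the highest PBS library were equal at this rounding, with DT just above. The log2 fold change was 0.56 ± 0.44 (edgeR adjusted p = 0.65). In lung DT the libraries spread from 13.4 to 96.4 CPM around the lung PBS range of 34.1 to 57.8 CPM, at -0.09 ± 0.44 (0.943). Per length, Rb1 made up 15.3 ± 5.73% of the summed Rb1 and Rbl1 of LN with PBS, 22.1 ± 8.76% with DT, and 23.4 ± 5.94% for lung PBS. In lung DT it was 42.0 ± 7.53% and ranged from 31.2% to 47.7%, above the lung PBS range of 16.8% to 30.1%. This share too was formed after the levels were known and has no test.

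Counted together in LN, 7 of the 8 genes had a positive log2 fold change with DT, with a median of 0.92 against 0.08 over all tested genes. At an unadjusted p under 0.05, E2f3, E2f7 and Rb1 were higher, where 8.29% of all genes were higher and 11.8% differed in either direction. The LN DT libraries lay above the LN PBS libraries for 4 of the 8 genes, E2f3, E2f7, Rb1 and Rbl1, against 5.05% of all genes.
In lung 6 of the 8 were positive, with a median of 0.54 against 0.09. None was called by edgeR, where 0.108% of all genes were, and DESeq2 and limma-voom called none either. Rb1 alone had an unadjusted p under 0.05, where 7.66% of all genes were higher and 14.7% differed in either direction, and E2f7 alone had no overlap, against 3.35%.
For the average over the sites, 3 of the 8 (E2f3, E2f7 and Rb1) had an unadjusted p under 0.05, against 23.1% of all genes. For lung against LN in PBS, 7 of the 8 were positive with a median of 1.00 against -0.01, and E2f7 and Rb1 had an unadjusted p under 0.05, against 16.9% of all genes. The same 2 genes had no overlap there, against 9.25%.

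**Figure D3:**
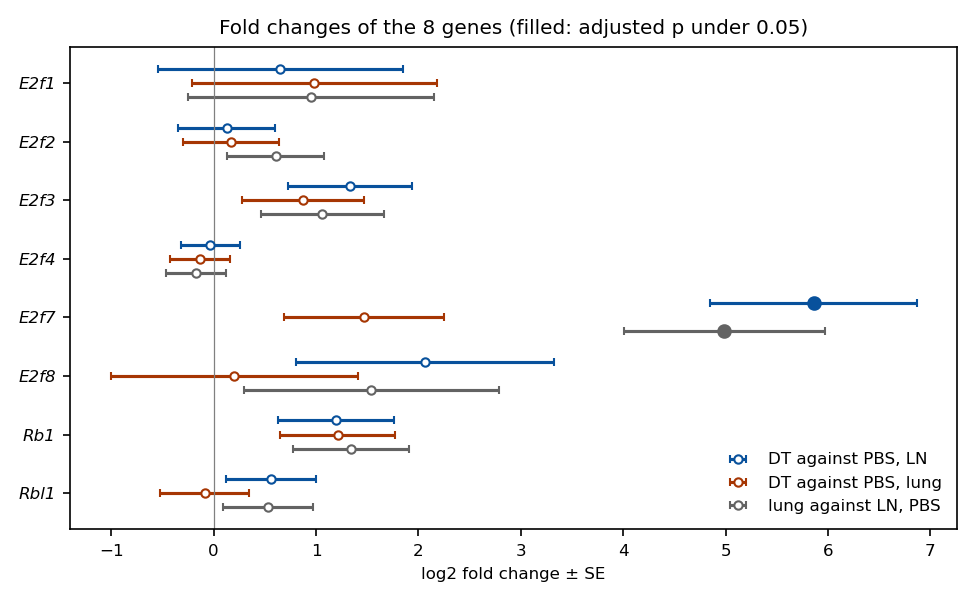
Log2 fold change with its SE (x axis) of each of the 8 genes (y axis) for DT against PBS in LN (blue), DT against PBS in lung (brown) and lung against LN in PBS (grey), with filled points for an edgeR adjusted p under 0.05. The filled points are E2f7 in LN at 5.86 and E2f7 in lung against LN at 4.99.

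The rest of the pathway was read from 5 lists of genes. The counts by the other tools stand against larger totals over all genes than those of edgeR. DESeq2 called 280 higher and 71 lower of 26329 genes in LN, and 313 and 209 in lung. Limma-voom called 2084 and 1652 of 13940 in LN, and 251 and 184 in lung. Of all tested genes, edgeR called 0.0646% in LN, 0.108% in lung, 3.9% in the average and 3.61% between tissues in PBS. At an unadjusted p under 0.05 by edgeR, 8.29% were higher with DT in LN and 7.66% in lung. In either direction 11.8% and 14.7% differed there. Of the other E2F, DP and pocket genes (E2f5, E2f6, Tfdp1, Tfdp2 and Rbl2), none of 5 was called by edgeR in any comparison, and none had an unadjusted p under 0.05 in LN or lung. Tfdp1, a dimer partner of the E2F factors, had 27.9 ± 8.38 CPM in LN PBS and 40.9 ± 6.04 CPM in LN DT (SD, n = 4 each), a log2 fold change of 0.55 ± 0.28 (edgeR adjusted p = 0.462). In lung its log2 fold change was 0.44 ± 0.28 (0.482) and that of Tfdp2 0.43 ± 0.31 (0.531). Rbl2, the gene of the third pocket protein p130, had log2 fold changes of 0.37 in LN (0.701) and -0.24 in lung (0.771), and E2f6 one of 0.62 in LN (0.707). DESeq2 and limma-voom also called none within a tissue, and DESeq2 called 1 in the average. The median of this list was 0.37 in LN and 0.15 in lung.

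Of the cyclins, kinases and inhibitors that act on the pocket proteins, 13 of 15 passed the filter on low counts, Cdkn2a and Cdkn2b being left out. None was called by edgeR within a tissue, where 2 were higher and 2 lower in LN and 1 higher and 2 lower in lung at an unadjusted p under 0.05. DESeq2 called 1 higher and 2 lower in LN, and 1 and 1 in lung. Limma-voom called 2 higher and 2 lower in LN, and 0 and 1 in lung. Averaged over the sites, 1 rose and 2 fell. Ccne2, a cyclin E gene, rose by 2.74 ± 0.47 on the log2 scale (edgeR adjusted p = 0.00875), from 4.79 ± 2.45 to 31.4 ± 18.8 CPM in LN and from 13.3 ± 6.18 to 91.6 ± 104 CPM in lung. Ccnd2, a cyclin D gene, changed by -1.02 ± 0.20 (0.0155), and Cdk4, a kinase partner of cyclin D, by -0.67 ± 0.17 (0.0384). With the mitochondrial covariate none of these 3 was called, nor any other tested gene in the average. Ccne2 and Ccnd2 were called in the other 25 of 26 alternatives. Cdk4 was called in 12, and also lost with scaling by total counts and with no gene filter. The Cdk4 call was lost, too, without any one of the LN PBS libraries, LN DT replicate 2 or 3, lung PBS replicate 1, 2 or 3, or lung DT replicate 2 or 3.
Within tissues the log2 fold changes of Ccnd2 were -1.29 in LN (0.104) and -0.74 in lung (0.247), and the inhibitor gene Cdkn2d had -0.90 in LN (0.215). Between lung and LN in PBS, Cdkn1a, the gene of the inhibitor p21, was higher in lung by 5.84 ± 0.38 (1.87e-07), at 461 ± 57.7 against 8.04 ± 1.78 CPM. Cdk2, the kinase partner of cyclin E, was higher by 1.51 ± 0.34 (0.0185), a call lost without LN PBS replicate 2, 3 or 4 or lung PBS replicate 3 (adjusted p up to 0.0767). The list's median was 0.32 in LN and -0.40 in lung with DT.

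Genes known as E2F targets in G1 and S phase were 26, and all were tested. With DT, 17 had a positive log2 fold change in LN and 19 in lung, with medians of 0.37 and 0.40, and edgeR called none in a single tissue. At an unadjusted p under 0.05 there were 4 in LN and 8 in lung, all higher with DT. Of all tested genes 8.29% and 7.66% were higher at that threshold. DESeq2 called 2 in LN and 4 in lung, and limma-voom 8 and 2. Averaged over the sites 4 rose by edgeR's test, the thymidylate synthase gene Tyms at 1.87 (adjusted p = 0.0168), the ribonucleotide reductase gene Rrm2 at 1.51 (0.0295), the thymidine kinase gene Tk1 at 1.37 (0.0147) and the polymerase gene Pola1 at 1.33 (0.0111). With the mitochondrial covariate none of the 4 was called, nor any other tested gene in the average. Otherwise Tyms, Tk1 and Pola1 were called in 25 of 26 alternatives. Rrm2 was called in 17, and lost without LN PBS replicate 1, 2 or 4, LN DT replicate 2 or 3, or lung PBS replicate 1, 2 or 3. In LN, Tyms averaged 22.7 ± 10.3 CPM with PBS and 104 ± 67.7 CPM with DT, and Pola1 16.7 ± 5.04 and 42.1 ± 8.27 CPM. In lung, Tk1 averaged 11.7 ± 2.74 CPM with PBS and 43.3 ± 7.88 CPM with DT, and Rrm2 36.9 ± 14.9 and 129 ± 89.6 CPM. Pcna, the replication clamp gene, was higher in lung than in LN in PBS by 1.13 (0.031), a call lost without any one of the LN PBS libraries or lung PBS replicate 2, 3 or 4 (adjusted p up to 0.109).

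Genes of G2 and mitosis had the highest medians of the 5 lists. All 20 had a positive log2 fold change in LN, with a median of 1.53, and 18 of 20 in lung, with a median of 1.87. In LN edgeR called none, with 9 at an unadjusted p under 0.05, while DESeq2 called 5 and limma-voom 14. In lung 3 rose by edgeR's test, the proliferation marker Mki67 at 2.90 (adjusted p = 0.0129), the kinetochore gene Knl1 at 2.82 (0.0162) and the topoisomerase gene Top2a at 2.48 (0.0491). These 3 calls ended with the mitochondrial share as a covariate, with the lung libraries fitted alone, and without lung PBS replicate 1 or 2. Over all tested genes, edgeR called 0 higher and 1 lower in lung with that covariate, and 0 and 0 with the lung libraries alone. Without lung PBS replicate 1, and without replicate 2, it called 0 higher and 1 lower. Over the alternatives the adjusted p reached 0.37 for Mki67, 0.515 for Knl1 and 0.864 for Top2a, which were called in 23, 21 and 15 of 27. Knl1 was also lost without lung PBS replicate 3 or 4, and Top2a without those or any LN PBS library or LN DT replicate 2 or 3. The 20 genes summed to 1747 CPM in lung DT replicate 1 and 556 to 654 CPM in the other lung DT libraries, against 175 to 300 CPM in lung PBS. Without both first DT libraries 3 of the 20 were called in lung, where 169 higher and 305 lower of all 14380 tested genes were called. Averaged over the sites 8 of 20 rose, these 3 with Ccnb2, Cenpe, Cenpf, Birc5 and Nusap1, at 1.68 to 2.51 for the further 5. With the mitochondrial covariate none of the 8 was called, nor any other tested gene in the average. Mki67, Top2a, Knl1 and Cenpe were called in the other 25 of 26 alternatives, while Cenpf was called in 20, Birc5 in 19, Ccnb2 in 17 and Nusap1 in 12. These last 4 were each lost without LN PBS replicate 4, LN DT replicate 2 or 3, or lung PBS replicate 1 or 3, among others, and Nusap1 also without both first DT libraries. Mki67 averaged 12.3 ± 4.59 CPM with PBS and 47.5 ± 17.1 with DT in LN, and 20.5 ± 6.96 and 153 ± 66.3 CPM in lung. E2f7 correlated with Mki67 at r = 0.70 over the 16 libraries and at -0.33 after the group means were removed.
Of the MuvB complex and its activators, 7 genes, edgeR called none, with 1 lower in LN and none in lung at an unadjusted p under 0.05. DESeq2 called 1 lower in LN, limma-voom 1 higher and 1 lower, and both called none in lung. Rbbp4, a histone-binding subunit, had a log2 fold change of -0.76 ± 0.24 in LN (0.233), and the activator genes Mybl2 and Foxm1 had 1.21 ± 1.30 (0.76) and 0.77 ± 0.92 (0.789). In lung Lin9 had -0.61 ± 0.45 (0.551) and Mybl2 1.43 ± 1.30 (0.63). The medians of this list were -0.04 in LN and -0.05 in lung.

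**Figure D4:**
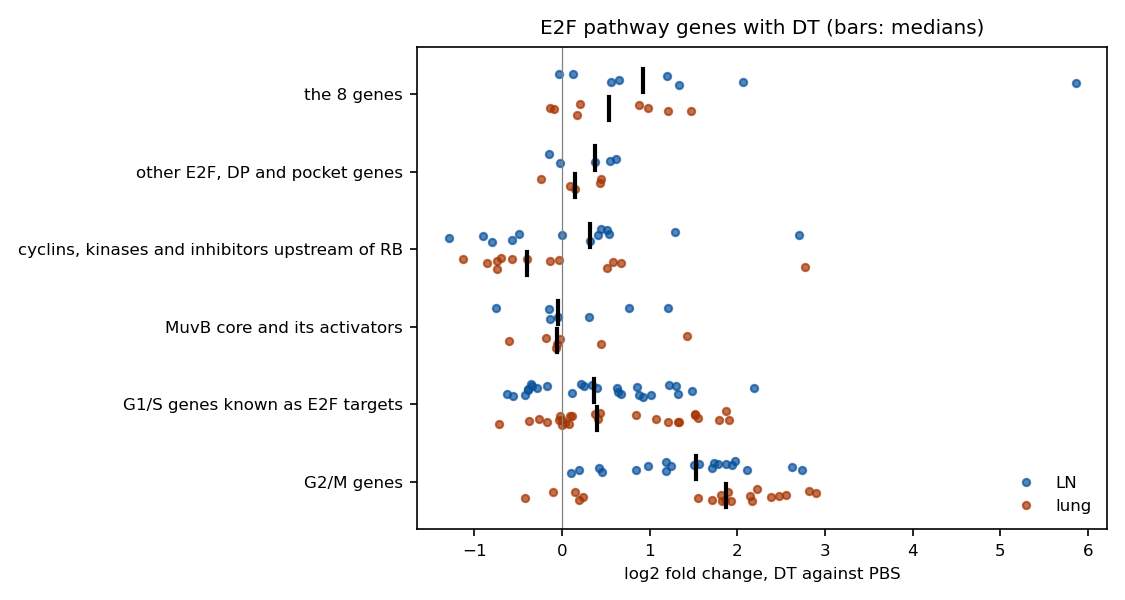
Log2 fold change of DT against PBS (x axis) for each tested gene of the 8 genes and of 5 pathway lists (y axis), in LN (blue) and lung (brown), with a black bar at each list's median. The G2/M genes have medians of 1.53 and 1.87, and the E2f7 point in LN at 5.86 lies to the right of all others.

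The genes whose levels followed each of the 8 most closely were taken by Pearson correlation of log2 CPM over the 16 libraries, 3 for each gene, as a description over libraries that share depth and group. For E2f7 they were Cd300lf (r = 0.90), the recombination gene Rad54l (0.88) and the small nucleolar RNA Snord104 (0.86). For E2f3 the first was Esco2 (0.88), a cohesin acetyltransferase gene of S phase, with Slamf1 (0.87) and Phlpp2 (0.87). For Rb1 they were Ifng (0.88), Vaultrc5 (0.87) and Rpph1 (0.86), 3 genes that lung DT replicate 1 also holds at a high level. The E2f3 matches were highest in that library too, Esco2 at 66.6 CPM, Slamf1 at 22.5 CPM and Phlpp2 at 32.0 CPM. E2f8 had the weakest matches, Avl9 (0.80), Dock8 (0.79) and Sgpp2 (0.79).
E2f1 was nearest to Lipe (0.95), Ubtd1 (0.93) and Mark4 (0.91), and E2f2 to Faap100 (0.88), Xkr8 (0.88) and Med26 (0.86). E2f4 was nearest to Plscr3 (0.87), Stx6 (0.86) and Zmiz2 (0.86), and Rbl1 to Nt5c3b (0.90), Cnot7 (0.88) and Zfp300 (0.88). The Rbl1 matches were likewise highest in lung DT replicate 1, at 144, 219 and 27.1 CPM. Ubtd1, like E2f1, was at 0 CPM in LN PBS replicate 1 and lung DT replicate 1.

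**Figure D5:**
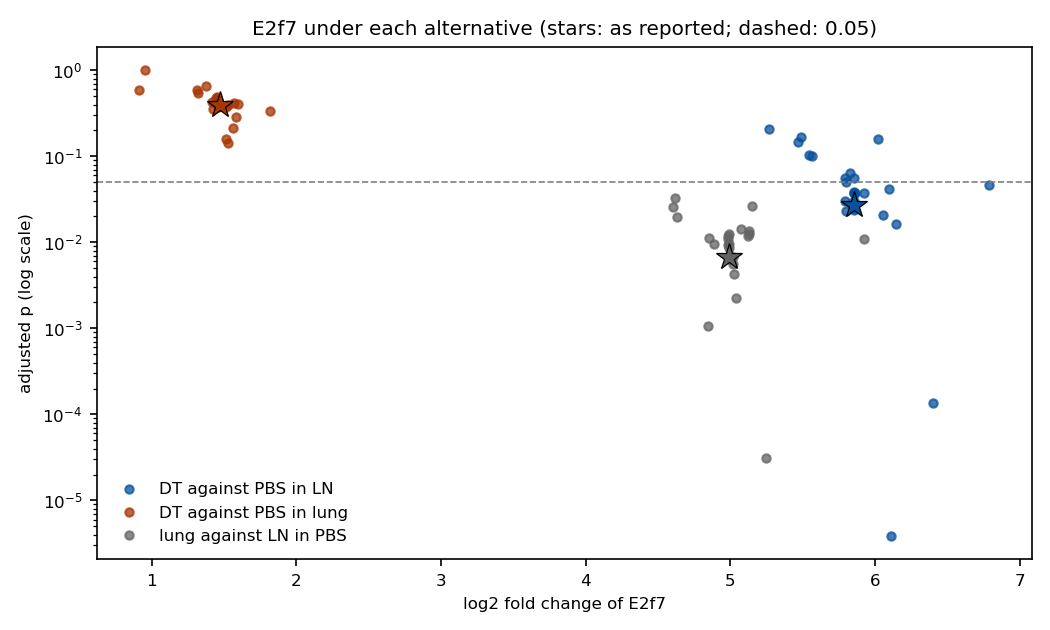
Fitted log2 fold change of E2f7 (x axis) against its adjusted p (y axis, log scale) under each alternative, for 3 comparisons, with stars for the values as reported and a dashed line at 0.05. The lung against LN points all lie under the line, the points for DT in LN lie on both sides of it, and those for DT in lung lie above it.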

How the data were processed

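Per the labels' protocols, RNA of sorted NK cells was amplified by Smart-seq2. Per the submitters' processing notes, reads went through HISAT2, HTSeq and GRCm38, with versions and strand setting not given in the sources used here. Raw counts per gene were deposited by the authors, and these whole numbers were used as they stand for all 16 libraries. Counts were scaled by TMM, filtered with filterByExpr (minimum count 10, minimum total 15) and fitted with 4 group means at once (12 residual degrees of freedom) by edgeR 4.0.16 (robust quasi-likelihood test, two-sided, Benjamini-Hochberg adjustment over 13940 genes) in R 4.3.3. DESeq2 1.42.0 and limma-voom (limma 3.58.1) served as alternatives, beside other scalings, filters, a replicate block, a mitochondrial covariate and each library left out. The script was tested on simulated data. RPKM used union exon lengths from GENCODE M21. Correlations used log2 CPM with a prior count of 2. No 2 libraries held identical counts. Depth limits precision for E2f7 and E2f8 in particular, whose levels rest on 0 to 131 counts a library.

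The 8 genes and all lists were chosen with earlier results of these data known. Named genes are the 8, every list gene called in a comparison and otherwise the 3 of smallest p per list in each DT comparison, and the 3 most correlated genes of each of the 8, with predicted genes left out. The B cell markers are not reported here.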

Additional observations from a re-analysis of the deposited data

Results flagged for a closer look

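Within groups of 4 libraries, the highest or lowest value was set apart from its group by Dixon's ratio, the gap to the nearest library over the whole range of the group, where it exceeded the 95% critical value for 4 libraries. Chance sets apart about 1 in 20 groups, and 4 of the 32 sets (8 genes in 4 groups) did so. E2f4 was low in LN PBS replicate 1, at 24.6 CPM (ratio 0.878). E2f7 was high in lung PBS replicate 4, at 5.46 CPM (ratio 0.938), and in lung DT replicate 4, at 17.2 CPM (ratio 0.911). Rb1 was high in lung DT replicate 1, at 84.1 CPM (ratio 0.918).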

How the results depend on the processing

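Of 1046 values recomputed for the 8 genes under the alternatives, 971 kept their direction and their side of the threshold, 54 changed sign, 11 lost and 10 gained a call. The cause of these changes was not tested, except that a filter at a mean of 5 CPM removes E2f7 and E2f8 by construction and leaves 0 of the 8 called in LN, in the average and between tissues. With each library left out in turn, E2f7 in LN ranged from 5.47 to 6.79 and the number called in LN from 0 to 1. With the replicate block E2f7 in LN was 5.83 (adjusted p 0.0641, range 3.88e-06 to 0.205), and 0 were called there. Same-numbered libraries deviated together in 8 of 24 pairs by a correlation over 0.1 (range -0.314 to 0.412), and 11 were best matched by their own number. All 4 pairs of LN DT with lung DT were over 0.1 (0.184 to 0.412), but not all pairs of PBS with DT within LN or within lung, so the numbers were not taken as pairs in the comparisons with DT. With the mitochondrial covariate E2f7 was 5.27 in LN and 3.11 in the average. In either, 0 of the 8 and 0 of all tested genes were called. DESeq2 called 3 in the average, adding E2f3 and Rb1. Limma-voom called 4 in LN and 3 between tissues, adding E2f8 and Rb1 in both and E2f3 in LN, and 3 in the average, adding E2f3 and Rb1. Without both DT libraries numbered 1, 2 were called between tissues, E2f7 and Rb1.

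For lung minus LN, Rb1 was -0.042 with total counts, -0.030 with no filter, -1.26 with voom, -0.26 with the block and -1.28 without both first DT libraries, E2f1 -0.037 with voom and -0.94 with the block, E2f2 -0.29 with voom and -0.52 without both, and E2f4 0.0034 with voom. In lung, E2f8 was -0.77 with voom, -0.27 with the block and -0.099 with the covariate, E2f1 -0.063 with the block, E2f4 0.16 with the covariate and E2f2 -0.047 without both. In LN, E2f4 was 0.25 with the covariate and 0.088 without both. In the average, Rbl1 was -0.22 with voom, -0.072 with the covariate and -0.26 without both, and E2f4 0.21 with the covariate and 0.012 without both. With single libraries left out the ranges were, for lung minus LN, -0.31 to 0.34 (E2f2), -0.23 to 0.080 (E2f4), -1.02 to 0.28 (Rb1) and -0.40 to 0.79 (E2f1), in LN -0.22 to 0.058 (E2f4) and -0.18 to 0.42 (E2f2), in lung -0.037 to 0.38 (E2f2), -0.90 to 0.20 (Rbl1) and -1.78 to 0.58 (E2f8), and in the average -0.0092 to 0.27 (E2f2) and -0.20 to 0.38 (Rbl1).

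Over all genes, the number called under any alternative ran from 0 to 3736 in LN, 0 to 522 in lung, 0 to 3781 in the average, 0 to 35 for the difference between the responses and 268 to 2296 between tissues. In LN, edgeR called 9 higher and 0 lower, DESeq2 280 and 71, and limma-voom 2084 and 1652. In lung the numbers were 8 and 7, 313 and 209, and 251 and 184. Averaged over the sites they were 344 and 200, 1186 and 565, and 1957 and 1824. Between tissues they were 377 and 126, 846 and 452, and 1241 and 1055. Scaling by total counts changed the split between tissues from 377 higher and 126 lower to 298 and 229.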
